A study of Mus musculus with 18 samples.

Results

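Ribosome footprints of the E15.5 cerebral cortex were compared between mice that lack *Mettl3* in the *Emx1* lineage (*M*-cKO) and control mice (Ctrl), gene class by gene class. The data are 6 of the 18 libraries of the series, 3 of Ctrl and 3 of *M*-cKO, and 14348 of the 54838 genes in the footprint count table, namely those with a count in every Ribo-seq library. A class (protein-coding, lncRNA, snoRNA, snRNA, microRNA, pseudogene or other noncoding) was assigned to 13978 of these genes by symbol from RefSeq, and 370 genes received none, among them 8 genes of the mitochondrial genome. The comparison asks which classes gained and which lost footprints when *Mettl3* was deleted.

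The *M*-cKO embryos carried floxed *Mettl3* alleles together with *Emx1-Cre*, the Ctrl embryos are labelled wild type, and the labels give the strain as C57BL/6 for all of them. According to the methods, the floxed line had a mixed C57/BL6 and 129 background and the Cre line was C57/BL6. *Emx1*-driven Cre acts in the dorsal telencephalic lineage, so that endothelium, microglia and interneurons that migrate in from the ganglionic eminences keep an intact *Mettl3*. RNA-seq libraries of the same genotypes and age, 3 of Ctrl and 3 of *M*-cKO, provided a second readout, and the 3 Ribo-seq libraries of *Fto* knockout cortex (*F*-cKO) are given only beside class shares. The labels call the libraries biological repeats, and *P* values measure the spread between these samples. The methods can be read as taking the 3 Ribo-seq samples from the same litter, in which case spread between litters is not measured.

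Mettl3 is the catalytic subunit of the complex that writes N6-methyladenosine (m6A), a methyl mark on messenger RNA that reader proteins link to RNA decay, splicing and translation. In Ribo-seq, an RNase trims lysate RNA down to the fragments that a bound ribosome shields, and these footprints are sequenced and counted per gene. Most footprints come from messenger RNA. Fragments of other stable RNAs or of RNA held in protein complexes can pass the same size selection, so a fragment assigned to a small noncoding gene is not by itself a sign of translation.

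Between 30081796 and 35853227 fragments were counted per Ctrl library and between 13764136 and 21725348 per *M*-cKO library. Across genes, log2 CPM (fragments scaled to a common library size) correlated at 0.983 to 0.988 within Ctrl, 0.956 to 0.974 within *M*-cKO and 0.929 to 0.969 between the groups. The library of *M*-cKO replicate 3 lay nearest to Ctrl in several class shares below, and *M*-cKO replicate 2 was the shallowest library. The protein-coding gene *Yipf1* held the highest mean share in Ctrl and varied from 1.12% to 6.92% of a Ctrl library and from 0.866% to 3.47% of an *M*-cKO library. The cortical markers *Neurod6* (889 to 1125 CPM in Ctrl, 628 to 956 CPM in *M*-cKO) and *Eomes* (86 to 98.4 CPM in Ctrl, 96.4 to 130 CPM in *M*-cKO) were present in every library.

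*Mettl3* itself was examined first. Its footprints stood at 38.6, 38.8 and 41.8 CPM in the Ctrl libraries and at 28, 26.9 and 26.6 CPM in the *M*-cKO libraries. All *M*-cKO libraries lay below all Ctrl libraries, as they did for 21% of all tested genes; they lay above for 18.4%, so that the groups did not overlap for 39.4%. The log2 fold change was −0.55 ± 0.09 (SE, n = 3 per group) with an edgeR quasi-likelihood adjusted *P* of 0.0157. Without Ctrl replicate 1, 2 or 3 the adjusted *P* of *Mettl3* was 0.0542, 0.0804 and 0.0624, with log2 fold changes from −0.57 to −0.49. The RNA of the same gene was higher in *M*-cKO (log2 fold change 0.50), and the difference between both changes was −0.99 on the log2 scale (adjusted *P* = 0.00741, interaction of assay and genotype in edgeR). Counts cover the whole gene, so exons outside the floxed part and cells outside the *Emx1* lineage both add to these values, and *Mettl3* overlaps *Tox4* in the RefSeq models. In bulk tissue, fewer cells of a type and less RNA per cell cannot be told apart.

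Classes of genes differed widely in how often they were called. A gene was called when its Benjamini-Hochberg adjusted *P* over all 14314 tested genes fell below 0.05 in edgeR's quasi-likelihood test. Over all tested genes, 7.13% were called higher and 7.5% lower in *M*-cKO. Among snRNA genes 31 of 58 (53.4%) rose and 0 fell, among snoRNA genes 53 of 110 (48.2%) rose and 1 fell, and among microRNA genes 53 of 183 (29%) rose and 0 fell. Protein-coding genes, in contrast, rose in 6.15% and fell in 7.84% of 12810 tests, close to the values over all genes to which they contribute most. For lncRNA genes the numbers were 19 higher (4.71%) and 34 lower (8.44%) of 403. At an unadjusted *P* under 0.05, 0 snRNA genes and 2 microRNA genes were lower, and DESeq2 called 0 and 2 lower. Calls were far fewer, 29 higher and 6 lower over all genes, when the *F*-cKO libraries shared the fit and its estimate of spread.

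**Figure D1:**
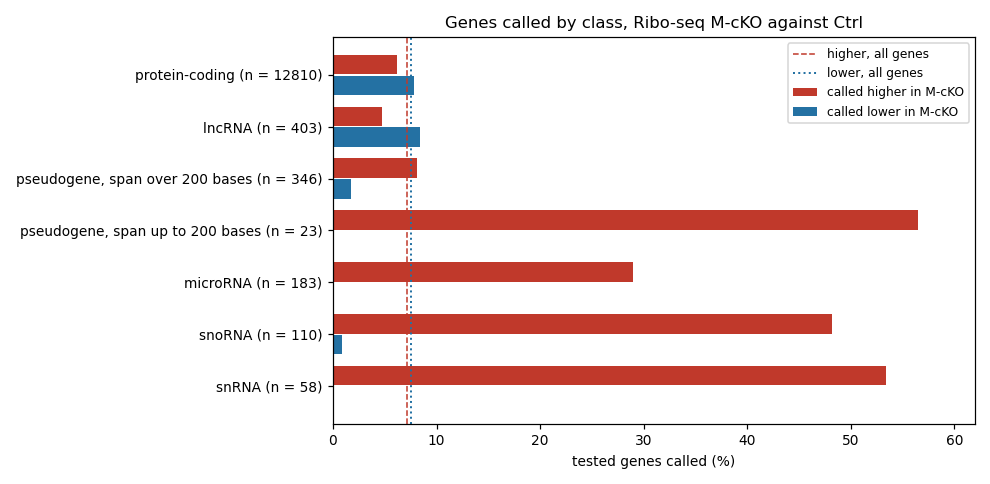
Percentage of tested genes called higher (red bars) or lower (blue bars) in *M*-cKO for each gene class, with the number of tested genes in brackets; the dashed red and dotted blue lines mark the percentage over all tested genes (7.13% and 7.5%). The bars of snRNA, snoRNA and microRNA genes and of pseudogenes up to 200 bases extend to between 29% and 56.5% in the higher direction, whereas protein-coding and lncRNA bars stay near the lines.

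The median log2 fold change was 1.76 for snRNA genes, 1.40 for snoRNA genes, 1.15 for microRNA genes and 0.51 for pseudogenes. It was −0.02 for protein-coding genes, −0.08 for lncRNA genes and 0.00 over all tested genes. Positive values were found for 55 of 58 snRNA genes, 100 of 110 snoRNA genes, 159 of 183 microRNA genes and 296 of 376 pseudogenes. Other scaling methods moved the median of all tested genes by no more than 0.02.

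**Figure D2:**
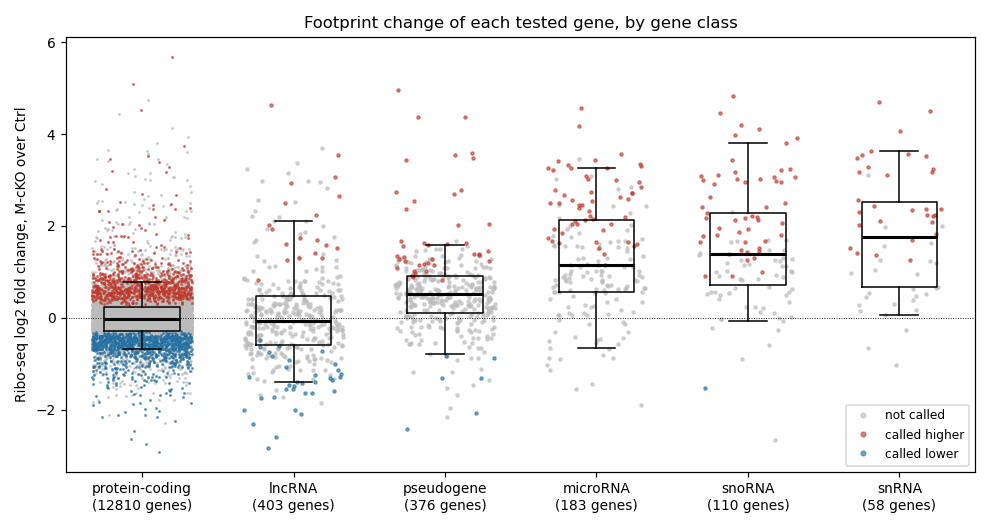
Ribo-seq log2 fold change of *M*-cKO over Ctrl for each tested gene (points), by class; boxes span the quartiles with the median as a thick line and whiskers reach the 5th and 95th percentiles. Protein-coding and lncRNA genes are spread around 0, and the boxes of microRNA, snoRNA and snRNA genes lie above 0, with medians of 1.15, 1.40 and 1.76.

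Single libraries did not contribute alike. When each tested gene was expressed as its log2 ratio to the Ctrl mean (0.5 CPM added), the median over snRNA genes was −0.17, −0.02 and 0.14 in the Ctrl libraries and 1.38, 1.92 and 1.79 in *M*-cKO replicates 1, 2 and 3. All *M*-cKO libraries were high in this class, and the groups did not overlap. The snoRNA medians were −0.30, −0.05 and 0.32 in Ctrl and 1.67, 1.46 and 0.71 in *M*-cKO. Here replicate 3 was the lowest of the *M*-cKO libraries and still above Ctrl. The microRNA medians were 0.03, 0.42 and −0.40 in Ctrl and 1.24, 1.83 and −0.27 in *M*-cKO. The groups overlapped for microRNA genes, because *M*-cKO replicate 3 lay within the range of Ctrl. Without that library 89 microRNA genes were called higher in place of 53, whereas 11, 15 and 16 were called without Ctrl replicate 1, 2 or 3 and 24 without *M*-cKO replicate 1. For snoRNA genes the counts were 18, 13 and 35 without these Ctrl libraries and 31 without *M*-cKO replicate 1, and for snRNA genes 20 and 19 were called without Ctrl replicates 1 and 2.

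The share of all counted fragments held by each class was compared over libraries, where 3 against 3 libraries allow no exact *P* below 0.1. snRNA genes held 0.115%, 0.146% and 0.126% of the fragments in Ctrl and 0.368%, 0.558% and 0.478% in *M*-cKO. snoRNA genes held 1.13%, 1.11% and 1.46% in Ctrl and 3.55%, 2.7% and 2.16% in *M*-cKO. Pseudogenes held 0.224%, 0.247% and 0.181% in Ctrl and 0.736%, 0.757% and 1.19% in *M*-cKO. lncRNA genes held 0.394%, 0.421% and 0.471% in Ctrl and 0.568%, 1.04% and 0.479% in *M*-cKO, where replicate 3 was close to Ctrl. In these 4 classes every *M*-cKO library exceeded every Ctrl library (*P* = 0.1 each, two-sided exact permutation test; 0.16 after Benjamini-Hochberg adjustment over 8 classes). The lncRNA groups overlapped without the 10 genes with most counts (exact *P* = 0.2), and the lncRNA difference of 0.266 percentage points was 0.0949 without *M*-cKO replicate 2. microRNA genes held 1.79%, 2.31% and 1.01% in Ctrl and 5.22%, 6.73% and 2.15% in *M*-cKO, where the groups overlapped (exact *P* = 0.2).

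Protein-coding genes held 93.9%, 93.2% and 92.5% of the fragments in Ctrl and 84.9%, 84.9% and 91.3% in *M*-cKO. All *M*-cKO libraries were lower, but replicate 3 was close to the Ctrl range (exact *P* = 0.1). The other noncoding class, mostly the Y RNA *Rny1*, held 2.05%, 2.09% and 3.6% in Ctrl and 4.1%, 2.18% and 1.89% in *M*-cKO, and the groups overlapped (exact *P* = 0.8). Shares sum to 100, so a rise in 1 class lowers the others. In *F*-cKO, the snoRNA and snRNA shares also lay above all Ctrl libraries, and the microRNA share lay between 1.05% and 1.48%.

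**Figure D3:**
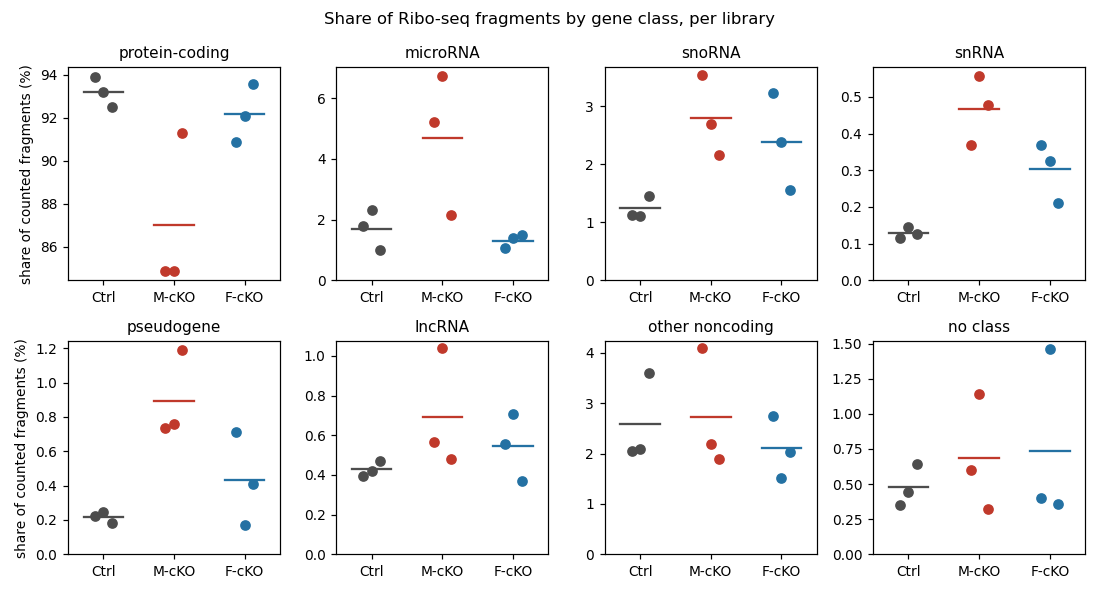
Share of counted Ribo-seq fragments (%) held by each gene class in every library; points are libraries and horizontal lines are group means (n = 3 libraries in each of Ctrl, *M*-cKO and *F*-cKO). The protein-coding axis does not start at 0. *M*-cKO points lie above all Ctrl points for snoRNA, snRNA, pseudogene and lncRNA genes and below them for protein-coding genes, while the microRNA, other noncoding and unclassed points overlap.

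snRNA genes code for the RNA core of the spliceosome and, in 7SK RNA, for a brake on transcription elongation. *Gm25308* had the smallest adjusted *P* of all genes, with 10.7, 12.7 and 10.4 CPM in Ctrl and 133, 128 and 137 CPM in *M*-cKO (log2 fold change 3.56 ± 0.11, edgeR adjusted *P* = 3.16e-05). Its libraries within a group differed little, and the groups lay far apart. *Gm24405* (19.5 to 23 CPM in Ctrl, 87.4 to 111 CPM in *M*-cKO) rose by 2.21 ± 0.12 on the log2 scale although *Kif26b*, the gene it lies in, fell. *Gm23330* (2.08 ± 0.12), *Gm23680* (2.34 ± 0.15) and *Gm26146* (2.10 ± 0.15) completed the 5 snRNA genes with the smallest adjusted *P*.

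Of 56 snRNA genes with a *Gm* symbol, 30 rose, with a median log2 fold change of 1.90. Such genes are often near-identical copies, so the split of fragments among them is uncertain. The 7SK gene *Rn7sk* stood at 38.1, 54.1 and 65.6 CPM in Ctrl and at 189, 142 and 182 CPM in *M*-cKO, without overlap of the groups (1.70 ± 0.21, edgeR adjusted *P* = 0.00669). The U5 gene *Rnu5g* had a log2 fold change of 0.28 that did not pass the test. Other abundant small RNAs did not pass the test either, with log2 fold changes of 0.04 for the Y RNA *Rny1*, 0.35 for *Rny3*, 0.22 for the telomerase RNA *Terc*, 0.17 for the vault RNA *Vaultrc5* and 2.61 for the RNase P RNA *Rpph1* (adjusted *P* = 0.0698). In the class of other noncoding genes, *Platr25* (−0.67 ± 0.13) was the only gene called of 9, and it did not pass the test without any 1 of the Ctrl libraries.

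snoRNAs guide chemical modification of other RNAs: box C/D snoRNAs direct 2′-O-methylation, box H/ACA snoRNAs direct pseudouridylation, and Cajal body RNAs act on spliceosomal snRNAs. Among H/ACA genes 10 of 11 rose (median log2 fold change 2.22), against the 7.13% over all genes. The exception was *Snora23*, with a log2 fold change of 0.57. *Snora30* stood at 1.03, 1.74 and 1.75 CPM in Ctrl and at 22.8, 28.4 and 12 CPM in *M*-cKO, and *Snora47* at 1.17 to 2.12 CPM against 10.9 to 21.4 CPM. For both genes every *M*-cKO library lay well above every Ctrl library (log2 fold changes 3.80 ± 0.37 and 3.22 ± 0.32). The 11 genes together held 0.00479% to 0.00806% of the Ctrl fragments and 0.0232% to 0.043% of the *M*-cKO fragments. When any library was left out, between 4 and 10 of them were still called higher.

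Among C/D genes 13 of 39 rose and 1 fell, with a median of 1.25. *Snord61* (3.06 ± 0.38), *Snord65* (1.87 ± 0.25), *Snord89* (3.03 ± 0.44) and *Snord66* (2.42 ± 0.40) had the smallest adjusted *P* in the higher direction, and 1 C/D gene was called higher without Ctrl replicate 2. *Snord43*, inside the ribosomal protein gene *Rpl3*, was the gene that fell, from 2442, 2410 and 3180 CPM in Ctrl to 1082, 612 and 1109 CPM in *M*-cKO (−1.52 ± 0.24, edgeR adjusted *P* = 0.0123). The *M*-cKO libraries were all lower and none overlapped with Ctrl, but the adjusted *P* of *Snord43* was 0.0536 without Ctrl replicate 2 and 0.0501 without Ctrl replicate 3. *Snord87*, the snoRNA gene with most fragments in *M*-cKO on average, stood at 3046, 2371 and 2189 CPM in Ctrl and at 10963, 5456 and 4755 CPM in *M*-cKO (1.48 ± 0.32). *Rnu73b* (1.46), which encodes a further C/D snoRNA but had no RefSeq class and is not among the 39, also rose, and *Snord73a* had 1.14 and did not pass the test. Cajal body RNAs rose in 3 of 7 genes (*Scarna8* 3.12, *Scarna13* 1.64, *Scarna2* 1.53). Of 49 snoRNA genes with a *Gm* symbol 26 rose, among them *Gm26493* within *Cnot1* with 181 to 284 CPM in Ctrl and 1871 to 4724 CPM in *M*-cKO.

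Most snoRNAs are cut from introns of other genes, which allowed each to be set beside its host. In the RefSeq models, which are used here without strand, 96 of the 110 tested snoRNA genes lay within the span of 79 tested protein-coding or lncRNA genes. The snoRNA genes had a median log2 fold change of 1.33 and their hosts one of −0.03, with 1 host higher, 7 lower and 71 not called. The same held for 90 microRNA genes (median 1.32) in 76 hosts (median 0.09, with 6 higher and 5 lower) and for 14 snRNA genes (median 1.41) in as many hosts (median −0.18, with 0 higher and 2 lower). This difference between small RNA genes and hosts is a description and was not tested.

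microRNAs are processed from hairpin precursors and pair with target messenger RNAs through their seed, bases 2 to 8 of the mature strand. The mature sequences of the 3′ arms of the 5 microRNA genes with the smallest adjusted *P* are shown first, from RefSeq (GRCm38.p6), 5′ to 3′ with the seed in capitals. The counts are per gene and do not tell which arm the fragments came from.
mmu-miR-652-3p: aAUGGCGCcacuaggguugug
mmu-miR-495-3p: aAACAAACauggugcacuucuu
mmu-miR-325-3p: uUUAUUGAgcaccuccuaucaa
mmu-miR-676-3p: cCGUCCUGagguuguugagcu
mmu-miR-532-3p: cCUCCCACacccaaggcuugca

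These 5 seeds differ from each other. *Mir495* (mature 3′ arm at chr12:109718795-109718816, plus strand) stood at 5.25, 10.2 and 7.38 CPM in Ctrl and at 88.4, 121 and 37.3 CPM in *M*-cKO (3.43 ± 0.45, edgeR adjusted *P* = 0.00827). *Mir652* stood at 3.74, 3.28 and 2.58 CPM against 19.8, 18.2 and 10.4 CPM (2.33 ± 0.28). In both genes the groups did not overlap, and *M*-cKO replicate 3 was the lowest *M*-cKO library. *Mir325* (3.27 ± 0.43), *Mir676* (2.56 ± 0.34) and *Mir532* (2.40 ± 0.32) followed the same order of *M*-cKO libraries at the low end, with 15.5, 34.1 and 179 CPM in replicate 3.

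Families that share a seed are shown next, because their called members can be counted against those tested. Seeds without a called member were not considered. Of 18 seeds shared by at least 2 tested genes and held by a called gene, 9 were shared by at least 2 called genes. The seed AUUGCAC, for instance, was held by 4 tested genes, of which only *Mir363* (2.78) rose. Seeds were read only from the mature arms that the RefSeq table holds. Among these, AGUGCAA is found in *Mir130a* (2.04), *Mir130b* (4.17) and *Mir301* (2.58), which rose; *Mir301b* (3.31) also rose, but the table holds only its 5′ arm. The seed ACAUUCA was found in 4 tested genes, of which *Mir181a-2* (3.42), *Mir181c* (2.51) and *Mir181d* (1.60) rose, whereas *Mir181a-1* had 1.85 and did not pass the test. The seed ACCCGUA is held by *Mir99a* (2.05) and *Mir99b* (3.26), which both rose.
mmu-miR-130a-3p: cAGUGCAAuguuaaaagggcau
mmu-miR-130b-3p: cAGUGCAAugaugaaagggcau
mmu-miR-301a-3p: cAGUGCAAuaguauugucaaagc
mmu-miR-181a-5p: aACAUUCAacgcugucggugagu
mmu-miR-181c-5p: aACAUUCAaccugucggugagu
mmu-miR-181d-5p: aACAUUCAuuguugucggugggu
mmu-miR-99a-5p: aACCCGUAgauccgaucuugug
mmu-miR-99b-5p: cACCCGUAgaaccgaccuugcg

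*Mir99a* held the largest mean share of all microRNA genes in both groups. It took 0.335%, 0.745% and 0.322% of all fragments in Ctrl and 2.3%, 2.56% and 0.968% in *M*-cKO (2.05, edgeR adjusted *P* = 0.0285), without overlap of the groups. The next, *Mir5099*, held 0.6%, 0.538% and 0.253% in Ctrl and 1.03%, 1.01% and 0.457% in *M*-cKO, which overlap. The seed AGCAGCA is held by 6 tested genes, of which *Mir322* (2.85) and *Mir16-1* (1.38) rose, while *Mir195a* (1.56), *Mir15b* (1.02), *Mir16-2* (0.82) and *Mir15a* (−1.45) did not pass the test.

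The genomic position of the microRNA genes was examined next. A hairpin position was found for 158 of the 183 tested genes, 28 of them on chromosome 12 and 26 on chromosome X. On chromosome 12, 23 genes lay between bases 109571990 and 109743496, in the imprinted cluster that also holds *Mir495*. Of these, 11 rose and 21 had a positive log2 fold change, with a median of 2.22 and a range from −0.50 to 3.56. On chromosome X, 9 of 26 genes rose (median 1.54). Over all microRNA genes 29% rose and 159 of 183 had a positive log2 fold change (median 1.15), so the count on chromosome X was near that of the class. Chromosome 2 had 5 of 9 called higher and chromosome 16 had 5 of 9, so called genes were also found on other chromosomes.

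Pseudogenes are gene copies that no longer code for the ancestral product, and many derive from small RNAs. They were split by the length of the RefSeq model. Of 23 pseudogenes with a span up to 200 bases, 13 rose (56.5%), 0 fell and 23 had a positive log2 fold change (median 2.04). Of 346 longer pseudogenes, 28 rose (8.09%) and 6 fell (1.73%), with a median of 0.46. Over all pseudogenes, the 41 higher calls were 14, 10 and 20 without Ctrl replicates 1, 2 and 3, and the 6 lower calls were 3, 2 and 2. The short copies were called higher at a rate like that of snRNA genes, and the longer ones were close to the 7.13% over all genes in the higher direction and below the 7.5% in the lower direction.

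*Gm22456*, a pseudogene of 145 bases, had 977, 1205 and 678 CPM in Ctrl and 5778, 5400 and 8593 CPM in *M*-cKO (2.79 ± 0.26, edgeR adjusted *P* = 0.00364). Every *M*-cKO library was several times above every Ctrl library. *Gm23239* rose from 2.02 to 2.4 CPM up to 22.1 to 25.1 CPM (3.47 ± 0.15), and *Gm26442* (4.37 ± 0.25), *Gm25489* (4.38 ± 0.34) and *Gm25704* (3.58 ± 0.37) also rose. Among longer models, *1600029O15Rik* (−2.07 ± 0.23), *Gm12492* (−0.88 ± 0.10) and *Gm7459* (−1.32 ± 0.22) fell, but *Gm7459* did not pass the test without Ctrl replicate 2 (adjusted *P* = 0.0733) or 3 (0.0522). Fragments from a parent gene can be assigned to its copies, so single pseudogene values are uncertain.

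lncRNA genes were called in both directions. Without *M*-cKO replicate 3 edgeR called 40 higher and 32 lower in place of 19 and 34, DESeq2 called 37 and 38, and 4 and 11, 4 and 3, and 6 and 10 were called without Ctrl replicates 1, 2 and 3. Without *M*-cKO replicates 1 and 2 the counts were 8 and 16, and 11 and 23. *Gm15728* rose from 9.22, 4.66 and 8.24 CPM in Ctrl to 157, 220 and 173 CPM in *M*-cKO (4.63 ± 0.28, edgeR adjusted *P* = 0.000572). *Dancr*, an RNA linked to the undifferentiated state of progenitors, rose from 15.5 to 21.4 CPM up to 53.9 to 83.7 CPM (1.94 ± 0.19). *Rmst*, a partner of Sox2 in neurogenesis, rose from 0.861 to 1.02 CPM up to 3.16 to 5.79 CPM (2.23 ± 0.29). In the RefSeq models *Dancr* overlaps *Snora26* and *Rmst* overlaps *Mir1251*, and the part of these small RNA genes in the counts was not tested. The RNA-seq log2 fold changes of *Dancr* (−0.20) and *Rmst* (0.30) did not pass the test. The nuclear RNA *Malat1* stood at 534, 756 and 719 CPM in Ctrl and at 1636, 2775 and 1368 CPM in *M*-cKO (1.52 ± 0.27, edgeR adjusted *P* = 0.0167). Its groups did not overlap, its RNA-seq log2 fold change did not pass the test, and the interaction did (adjusted *P* = 0.0492).

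*Dubr*, on the other hand, fell from 39.5, 30.4 and 31.5 CPM to 10.7, 13 and 10.7 CPM (−1.56 ± 0.15, edgeR adjusted *P* = 0.0039). *1700086L19Rik* (−1.47 ± 0.19), *Gm27166* (−2.84 ± 0.39) and the imprinted *Peg13* (−1.14 ± 0.16) also fell, and *2610316D01Rik* (1.70 ± 0.21) and *Gm16064* (2.93 ± 0.50) were also higher. *Gm16064* did not pass the test without any 1 of the Ctrl libraries (adjusted *P* from 0.0513 to 0.0706), and neither *Gm27166* nor *Peg13* did without Ctrl replicate 2. Of the 33 lower lncRNA genes that RNA-seq could test, 17 were also lower in RNA, and of 15 higher ones 3 were also higher in RNA. Of all 353 lncRNA genes that RNA-seq could test, 74 were lower and 29 higher in RNA, and among genes of all classes tested in both assays 15.3% were lower and 18.5% higher, so the 3 of 15 were near the rate over all genes. Among 25 snoRNA host and nuclear lncRNA genes 2 rose, *Malat1* and *Snhg11* (1.42 ± 0.34), and *Gas5*, which hosts many C/D snoRNAs, had a log2 fold change of 0.41 that did not pass the test.

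Protein-coding genes were called in both directions in like numbers, 788 higher and 1004 lower, with a median absolute log2 fold change of 0.67 and 0.60. More than 2-fold change was seen in 145 genes that rose and 130 genes that fell. *Tpgs1*, a subunit of the tubulin polyglutamylase complex, stood at 24.5, 24 and 24.1 CPM in Ctrl and at 69.5, 75.7 and 71.7 CPM in *M*-cKO (1.58 ± 0.09, edgeR adjusted *P* = 0.000456). The libraries of each group were nearly equal. *C2cd2l*, a lipid transfer protein at contacts of endoplasmic reticulum and plasma membrane, rose from 8.01 to 12.8 CPM up to 78.9 to 144 CPM (3.39 ± 0.26), while its RNA had a log2 fold change of 0.02. *Tbcc*, a tubulin folding cofactor, rose by 1.22 ± 0.10 on the log2 scale, and the phosphatase gene *Dusp14*, the recombination gene *Rad52* and the Mediator subunit gene *Med18* rose by 1.46 ± 0.13, 1.23 ± 0.12 and 1.45 ± 0.14. *Ddx28* (0.96 ± 0.09), which overlaps *Dus2*, and *Asb8* (0.94 ± 0.09) were also among the 10 higher genes with the smallest adjusted *P*. These counts depended on single libraries: 154, 47 and 153 protein-coding genes were called higher without Ctrl replicate 1, 2 or 3, and 355 without *M*-cKO replicate 1. The lower counts were 138, 54 and 175 without these Ctrl libraries and 342 and 471 without *M*-cKO replicates 1 and 2. With all libraries, a fit of protein-coding genes alone called 1159 higher and 1068 lower. A fit without the 10 genes with most counts called 858 higher and 850 lower.

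*Gucy1b1* and *Gucy1a1*, which encode both subunits of soluble guanylate cyclase, fell together. *Gucy1b1* stood at 231, 196 and 226 CPM in Ctrl and at 96.2, 100 and 88.1 CPM in *M*-cKO (−1.20 ± 0.10, edgeR adjusted *P* = 0.00257), and *Gucy1a1* fell by 1.09 ± 0.12. The retinaldehyde-binding protein gene *Rlbp1* (−1.42 ± 0.12) and the thyroid hormone transporter gene *Slco1c1* (−2.46 ± 0.22) also fell, and for *Slco1c1* the levels were 8.44, 9.55 and 12.7 CPM against 2.07, 1.66 and 1.82 CPM. *Slco1c1* was listed with radial glia but is also a marker of brain endothelium, whose 13 other markers had a median of −0.57 with 0 called; their part in this result was not tested. The groups were well apart for all 4 genes. *Dok5* (−1.87 ± 0.19), *Gpr85* (−1.32 ± 0.13), *Kif26b* (−1.22 ± 0.12), the metallothionein *Mt3* (−1.47 ± 0.16), *Fv1* (−1.35 ± 0.14) and *Pcyt1b* (−0.78 ± 0.08) completed the 10 lower genes with the smallest adjusted *P*.

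**Figure D4:**
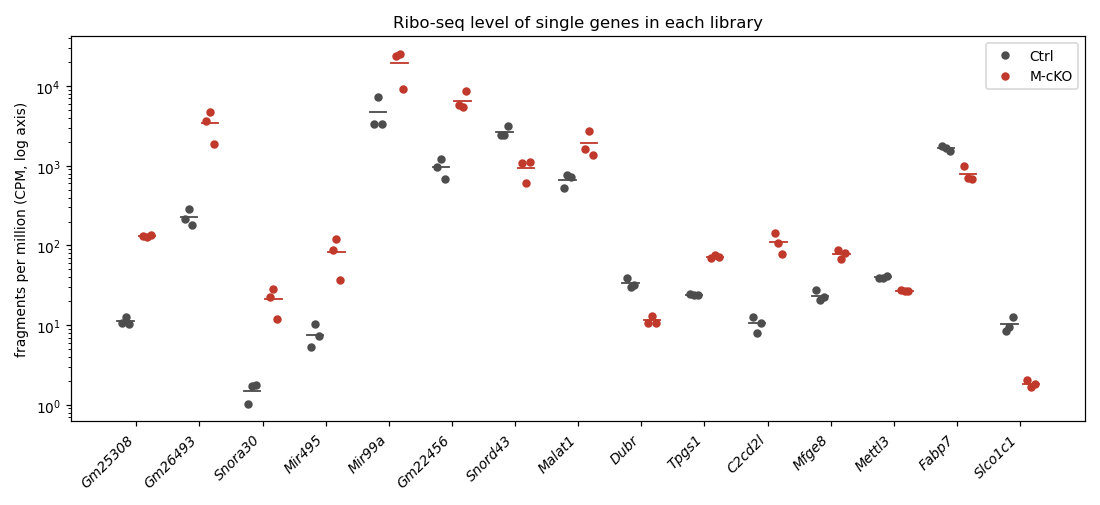
Ribo-seq level (CPM, logarithmic axis) of 15 genes in the 3 Ctrl libraries (grey) and the 3 *M*-cKO libraries (red), with group means as horizontal lines. From left to right the first 6 are small RNA genes and a short pseudogene that rose, followed by the snoRNA gene *Snord43* that fell, 2 lncRNA genes and 6 protein-coding genes. The groups do not overlap for any gene shown, which the choice of most of them required and which held for 39.4% of all tested genes.

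The footprint change was read against the RNA change of the same gene in other libraries. RNA-seq called 18.5% of the genes tested in both assays higher and 15.3% lower. Of 769 protein-coding genes with more footprints 573 (74.5%) also had more RNA, 12 had less and 184 were not called in RNA-seq. Of 996 genes with fewer footprints 470 (47.2%) also had less RNA, 17 had more and 509 were not called. The median RNA-seq log2 fold change was 0.48 for the first set, whose footprint median was 0.66, and −0.22 for the second, whose footprint median was −0.59.

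The interaction of assay and genotype passed the test for 1.46% of genes in the higher direction and 0.923% in the lower direction. These 202 and 128 calls fell to 13 and 4 with the replicate block and to 7 and 3 without RNA-seq *M*-cKO replicate 1. They were 34 and 19 without Ribo-seq Ctrl replicate 2, between 11 and 61 higher and 5 and 38 lower without any of the other RNA-seq libraries, 61 and 29 without Ribo-seq Ctrl replicate 1, and 503 and 444 without Ribo-seq *M*-cKO replicate 3. Without Ribo-seq Ctrl replicate 3 or *M*-cKO replicate 1, 217 and 203 were lower. With all libraries it was called for 76 of the protein-coding genes with more footprints, and for 73 of those with fewer in the lower direction. In 29 protein-coding genes both assays were called in opposite directions, 12 with more footprints and 17 with fewer. *Mfge8*, which bridges dying cells to phagocytes, was such a gene: footprints rose from 27.3, 20.8 and 22.3 CPM to 87.9, 67.8 and 80.3 CPM while its RNA fell by 0.44 on the log2 scale (interaction 2.25). Few small RNA genes could be tested in RNA-seq, namely 19 snoRNA genes, 5 microRNA genes and 1 snRNA gene, of which 0 were called higher in RNA.

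The length of the gene model was compared among protein-coding genes, as a description. When the genes were split into 4 equal bins of RefSeq span, in the bin of shortest genes (median 5948 bases) 8.22% rose and 6.31% fell. In the bin of longest genes (median 125240 bases) 5.36% rose and 9.27% fell. For the length that underlies the deposited RPKM values, which follows exons rather than introns, the 4 bins ranged from 5.68% to 6.74% higher and from 7.4% to 8.28% lower. Across the bins of span the share of higher genes was largest for the shortest genes and the share of lower genes was largest for the longest.

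Genes of protein synthesis were examined as fixed lists, each read against 7.13% higher and 7.5% lower over all genes. Translation initiation and elongation factors fell in 11 of 69 genes and rose in 0 (median −0.12), led by the eIF3 subunits *Eif3m* (−0.67 ± 0.09), *Eif3e* (−0.68 ± 0.09) and *Eif3g* (−0.67 ± 0.13) and the helicase *Eif4a1* (−0.56 ± 0.08). Their summed level was 15319 to 15816 CPM in Ctrl and 13651 to 14442 CPM in *M*-cKO, without overlap. Aminoacyl-tRNA synthetases, which charge tRNAs, fell in 3 of 20 genes and rose in 0, *Farsb* by 0.71 ± 0.09. Cytosolic ribosomal proteins rose in 4 and fell in 7 of 79 genes (median −0.04), which is near the rates over all genes. *Rpl29* (1.12 ± 0.18) and *Rps18* (0.81 ± 0.15) were higher, and *Rps27a* (−0.61 ± 0.11) and *Rpl12* (−0.74 ± 0.17) were lower. In the fit without Ctrl replicate 2, edgeR called 0 genes of the synthetase and cytosolic ribosomal lists.

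Mitochondrial ribosomal proteins rose in 10 and fell in 7 of 77 genes. *Mrpl43* (1.44 ± 0.13, a gene that overlaps *Twnk*), *Mrps34* (1.5 ± 0.15) and *Mrpl16* (0.95 ± 0.11) were the clearest of the higher genes, and *Mrps18c* fell by 0.87 ± 0.16. Nuclear-encoded subunits of the respiratory chain rose in 4 and fell in 11 of 89 genes (median −0.14), among them *Ndufs5* (−1.07 ± 0.18), *Ndufv1* (−0.70 ± 0.12) and *Uqcrc2* (−0.56 ± 0.09). Their summed level was 14428 to 14837 CPM in Ctrl and 11658 to 12872 CPM in *M*-cKO. Without Ctrl replicate 2, 3 mitochondrial ribosomal genes were called higher and 0 lower, and 0 respiratory chain genes were called. The 8 genes of the mitochondrial genome went the other way in 7 cases by sign (median 1.04). *mt-Nd4* (3.12, edgeR adjusted *P* = 0.0311) and *mt-Nd5* (2.91, adjusted *P* = 0.0315) passed the test, whereas all of the 8 genes were lower in RNA-seq, and *M*-cKO replicate 2 was the highest library for both.

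Protein folding and turnover were covered by 3 lists. Chaperonin and other cytosolic chaperone genes fell in 6 of 24 and rose in 0 (median −0.21), with *Cct4* (−0.72 ± 0.10), *Cct8* (−0.52 ± 0.10), *Cct2* (−0.59 ± 0.13) and *Hspe1* (−0.68 ± 0.13). Proteasome subunits fell in 6 of 36 and rose in 0 (median −0.20), with *Psmd6* (−0.82 ± 0.11) and *Psma3* (−0.74 ± 0.13). Chaperones of the endoplasmic reticulum rose in 4 of 22 and fell in 0 (median 0.28), namely *Pdia4* (0.54 ± 0.12), *Manf* (0.59 ± 0.15), *P4hb* (0.32 ± 0.08) and *Calr* (0.45 ± 0.12). Without Ctrl replicate 2, edgeR called 0 members of these 3 lists and 0 translation factors, and 115 genes higher and 62 lower over all tested genes. At an unadjusted *P* under 0.05 with all libraries, 11 chaperonins, 15 proteasome subunits and 22 translation factors were lower and 0, 1 and 4 were higher. DESeq2 called 7, 11 and 15 of them lower and 0, 1 and 2 higher.

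**Figure D5:**
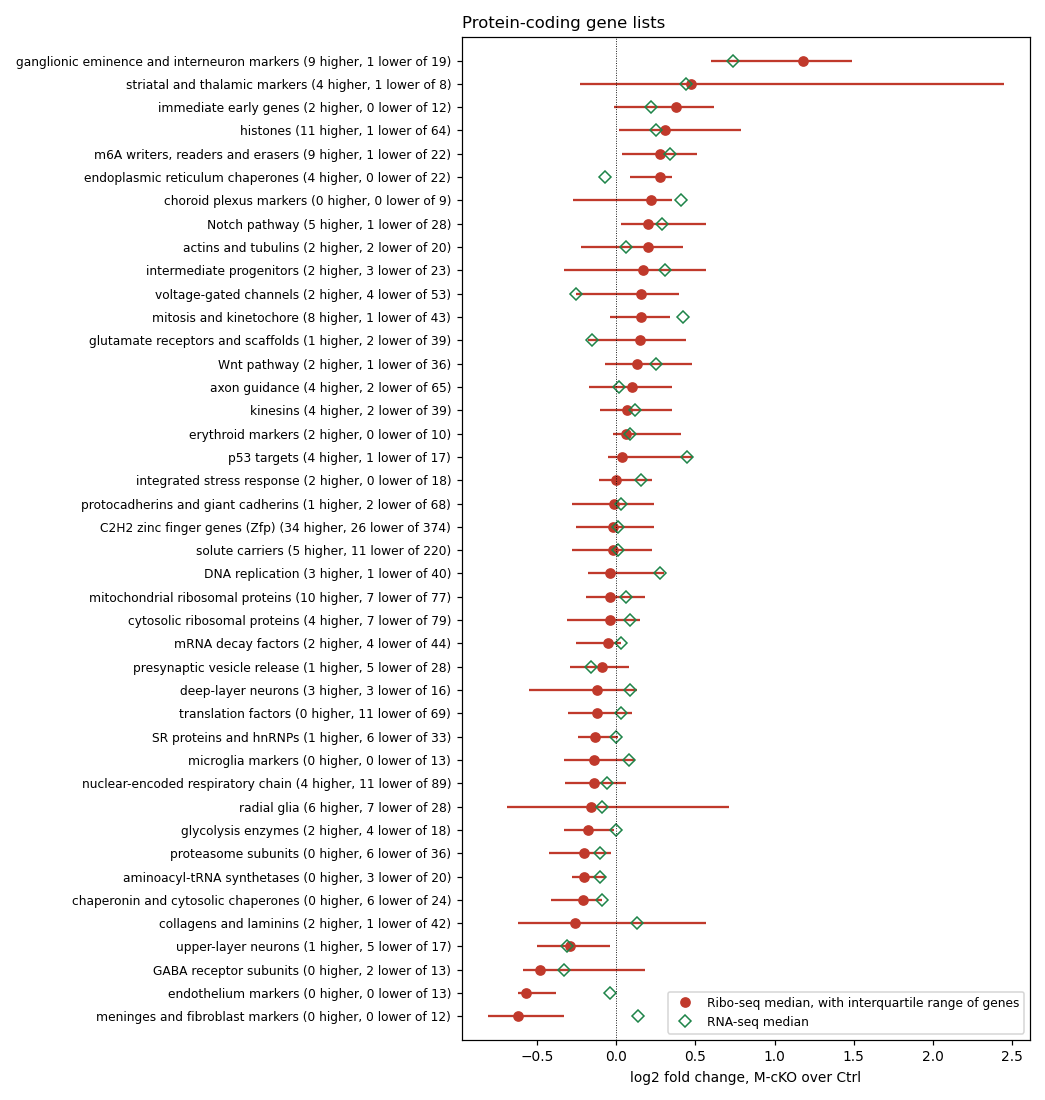
Median log2 fold change of *M*-cKO over Ctrl for 42 lists of protein-coding genes, in Ribo-seq (red circles, with lines over the interquartile range of the genes) and in RNA-seq (open green diamonds); labels give the numbers of genes called higher and lower in Ribo-seq and the number tested. Ganglionic eminence and interneuron markers lie highest (Ribo-seq median 1.18), and upper-layer neuron genes (−0.29), GABA receptor subunits (−0.48) and markers of endothelium (−0.57) and meninges (−0.62) lie lowest.

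Nuclear lists differed from each other. SR proteins and hnRNPs, which act in splicing, fell in 6 and rose in 1 of 33 genes (median −0.13), with *Tra2b* (−0.54 ± 0.09) and *Srsf9* (−0.50 ± 0.10) lower. Histone genes rose in 11 and fell in 1 of 64 (median 0.31), with the linker histones *Hist1h1c* (1.14 ± 0.15) and *Hist1h1d* (1.06 ± 0.14) in the lead. Many histone genes are near-identical copies, and RNA-seq could test 23 of them. Mitosis and kinetochore genes rose in 8 and fell in 1 of 43 genes, *Mki67* by 0.79 ± 0.12 and *Cenpf* by 0.69 ± 0.12, and RNA-seq called 26 of them higher. Zinc finger genes of the *Zfp* and *Zbtb* families rose in 34 and fell in 26 of 374 genes, near the rates over all genes. Without Ctrl replicate 2, edgeR called 1 histone gene higher, 2 zinc finger genes higher and 1 lower, and 0 genes of the other 2 lists.

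Of 22 tested genes of the m6A pathway, *Mettl3* included, 9 rose and *Mettl3* alone fell (median 0.28). *Rbm15* and *Rbm15b*, which recruit the writer complex to RNA, rose by 1.02 ± 0.13 and 0.79 ± 0.10. The writer subunit gene *Wtap* stood at 82.4, 74.9 and 71 CPM in Ctrl and at 101, 96.9 and 128 CPM in *M*-cKO (0.51 ± 0.13, edgeR adjusted *P* = 0.0364). Of the readers, *Ythdf2* rose from 138, 167 and 166 CPM to 291, 224 and 337 CPM (0.86 ± 0.16), and *Ythdf1* (0.48), *Ythdc1* (0.50), *Igf2bp1* (0.73) and *Igf2bp2* (0.71) were also higher. *Mettl14*, the partner of Mettl3, had a log2 fold change of 0.07, the erasers *Alkbh5* and *Fto* had 0.04 and 0.15, and *Mettl16* and *Prrc2a* had 0.43 and 0.37. None of these 5 passed the test. Without Ctrl replicate 1, 2 or 3, edgeR called 2 genes of the list higher and 0 lower, and 3 and 1 without *M*-cKO replicate 1; *Wtap*, *Ythdf1*, *Ythdf2* and *Ythdc1* lost their calls in each of these fits.

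Radial glial genes, which mark the stem cells of the cortex, moved both ways, with 6 higher and 7 lower of 28. The transcription factor genes *Sox2* (1.12 ± 0.15), *Gli3* (1.12 ± 0.14) and *Sox9* (0.88 ± 0.15) rose. *Fabp7*, a fatty acid binding protein of radial glia, stood at 1752, 1689 and 1552 CPM in Ctrl and at 1000, 702 and 684 CPM in *M*-cKO (−1.07 ± 0.16, edgeR adjusted *P* = 0.0115). *Tnc* (−1.05 ± 0.15) and *Cdk6* (−1.14 ± 0.17) fell as well, as did *Gpm6a* (−0.99 ± 0.17), while *Gpm6b* (−0.44 ± 0.13, adjusted *P* = 0.0551) did not pass the test. Intermediate progenitor genes rose in 2 and fell in 3 of 23, and *Eomes*, which defines these cells, had a log2 fold change of 0.32 that did not pass the test. *Nrp1* fell by 0.79 ± 0.21, and *Tcf4* (−0.35, adjusted *P* = 0.0526), *Ccnb1* (−0.42) and *Epha4* (−0.31) did not pass the test. In the fit without Ctrl replicate 2, radial glial genes were called higher in 3 cases and lower in 4, intermediate progenitor genes in 0 and 1, and *Fabp7*, *Cdk6*, *Gpm6a* and *Nrp1* did not pass the test.

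Neuronal identity genes were read by cortical layer. Of 17 upper-layer genes 5 fell and 1 rose (median −0.29), and of 16 deep-layer genes 3 fell and 3 rose; the difference between both lists was not tested. *Dok5*, an adaptor of receptor tyrosine kinases, stood at 202, 193 and 218 CPM in Ctrl and at 46.4, 47 and 73.7 CPM in *M*-cKO (edgeR adjusted *P* = 0.00401), without overlap of the groups. *Mef2c* (−1.05 ± 0.21) and *Inhba* (−1.40 ± 0.30) also fell. Among deep-layer genes *Bcl11b* (0.95 ± 0.12), *Sox5* (0.66 ± 0.10) and *Foxp2* (0.96 ± 0.23) rose, and *Crym* (−1.85 ± 0.26) and *Ldb2* (−1.28 ± 0.16) fell. Presynaptic genes fell in 5 and rose in 1 of 28, with *Syt4* at −0.99 ± 0.14 and *Syn1* at −0.63 ± 0.10. With Ctrl replicate 2 left out, edgeR called 0 genes of these 3 lists higher and 2 upper-layer, 2 deep-layer and 1 presynaptic gene lower.

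Some markers of cells outside the *Emx1* lineage also differed between the groups, and their part in the results above was not tested. Ganglionic eminence and interneuron markers rose in 9 and fell in 1 of 19 genes (median 1.18), with *Dlx6* (2.12 ± 0.42), *Sp9* (1.96 ± 0.43) and *Sst* (1.49 ± 0.31) higher and *Npy* (−0.75 ± 0.17) lower, and RNA-seq called 16 of them higher. Their summed level was 389 to 536 CPM in Ctrl and 612 to 984 CPM in *M*-cKO, without overlap, and without Ctrl replicate 2 edgeR called 0 of the list higher. Striatal and thalamic markers rose in 4 and fell in 1 of 8 genes, with *Isl1* (3.29 ± 0.73), *Six3* (2.81 ± 0.66) and *Ebf1* (2.33 ± 0.49) higher. They summed to 125 to 143 CPM in Ctrl and 128 to 248 CPM in *M*-cKO, which overlap. The embryonic globin genes *Hbb-y* (3.52 ± 0.47) and *Hba-x* (2.37 ± 0.42) rose among 10 erythroid markers, whose sum overlapped between the groups (258 to 534 CPM and 329 to 456 CPM). No gene of the striatal and thalamic list or of the erythroid list was called higher without Ctrl replicate 2.

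By edgeR, 0 of 13 endothelium, 13 microglia, 12 meninges and 9 choroid plexus markers were called in either direction. At an unadjusted *P* under 0.05, 4 endothelium markers and 1 choroid plexus marker were lower and 1 microglia marker was higher, and DESeq2 called 1 meninges and 1 choroid plexus marker lower. The summed levels of all 4 lists overlapped between the groups, at 46.2 to 74 CPM in Ctrl and 38.4 to 48.6 CPM in *M*-cKO for endothelium and at 28.4 to 35.9 CPM and 25.8 to 37.5 CPM for microglia. Within a group, choroid plexus markers ranged from 473 to 1975 CPM in Ctrl and meninges markers from 26.5 to 154 CPM in *M*-cKO.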

How the data were processed

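Ribo-seq and RNA-seq libraries came from E15.5 cerebral cortex, with 3 libraries of each genotype. For Ribo-seq, the authors used TopHat2 for mapping and HTSeq for counting, and they deposited raw counts per gene and RPKM values. For RNA-seq, HISAT2 2.0.5 was used, and the authors deposited raw counts and FPKM values; the counting tool and its strand setting are not given in the sources used here. The labels list DESeq2 1.14.1 and the build mm10. Only the deposited counts were tested. The RPKM values served for gene length and for the genes with blank counts, and the FPKM values were not tested.

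Of 54838 genes, 40490 with blanks were left out; their RPKM sum was 0.299% of the total in Ctrl and 0.391% in *M*-cKO on average (exact permutation *P* = 0.4). Classes, spans and microRNA sequences were taken from RefSeq (GRCm38.p6) by symbol, 218 of them by synonym. Counts were scaled by TMM, filtered with filterByExpr (minimum count 10, minimum total 15) and tested with edgeR 4.0.16 quasi-likelihood models (R 4.3.3), with Benjamini-Hochberg adjustment over all tested genes and a threshold of 0.05. The biological coefficient of variation was 0.23 in Ribo-seq and 0.0938 in RNA-seq. RNA-seq libraries held 18504094 to 22592406 counts. Class shares were compared by two-sided exact permutation. Tested on simulated data with 14314 genes, the Ribo-seq fit called 45 of 100 genes changed 2-fold, 87 of 100 changed 4-fold and 10 unchanged genes.

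Members and gene lists were chosen with earlier results of these data known. The text names *Mettl3*, the 10 protein-coding genes and the 5 genes of each noncoding class with the smallest adjusted *P* per direction whose libraries do not overlap, up to 4 called members of each list and direction, cell type markers, genes the study names, and the 10 genes with most fragments; members that were not called, further family members and genes of shared seeds were added after their values were seen. Some genes that the rule selects are not reported here. Alternatives were DESeq2 1.42.0, other scaling, no filter, one fit of all groups, a replicate block, protein-coding genes alone, a 2-fold limit and each library left out; leaving out the 10 genes with most counts from the tests, and gene length in place of protein length, were chosen after seeing the data.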

Additional observations from a re-analysis of the deposited data

Results flagged for a closer look

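The microRNA share of fragments went in opposite directions in the knockouts. Every *M*-cKO library lay above the Ctrl mean of 1.7% and every *F*-cKO library lay below it, with a mean difference of *M*-cKO minus Ctrl of 3 percentage points. The Ctrl libraries ranged from 1.01% to 2.31% and so overlapped with both knockouts, the Ctrl libraries are shared by both comparisons, and the difference between the knockouts was not tested.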

How the results depend on the processing

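With DESeq2, 1602 genes were called higher, among them 1265 protein-coding genes and 67 pseudogenes, and the interaction called 562 higher and 493 lower. With all groups in one fit, 29 genes were called higher and 6 lower, of which 4 and 4 were protein-coding, 20 and 1 noncoding and 3 and 1 pseudogenes, and the interaction called 6 and 2; the cause was not tested. With a 2-fold limit, 367 genes were called higher and 183 lower, 145 and 130 of them protein-coding. Same-numbered Ribo-seq libraries had correlations of −0.0237, 0.141 and 0.0943, so the numbers were not taken to pair the samples; with the replicate block 681 genes were called higher and 638 lower, with 485 and 599 protein-coding genes, 17 lower noncoding genes and 13 and 4 interaction calls. When each library was left out, the counts ranged from 115 to 1303 higher and 62 to 1244 lower for all genes, 47 to 963 and 54 to 1177 for protein-coding genes, 51 to 228 and 3 to 34 for noncoding genes, 10 to 35 and 2 to 8 for pseudogenes, and 7 to 503 and 3 to 444 for the interaction; RNA-seq counts ranged from 2048 to 2584 and 1498 to 2146. The share difference of the other noncoding class changed sign, at −0.124, −0.104 and −0.547 percentage points without Ctrl replicate 1, Ctrl replicate 2 or *M*-cKO replicate 1 (range −0.547 to 0.651), and the log2 fold change of *Alkbh5* ranged from 0.00 (without Ctrl replicate 3) to 0.08. Among 75 genes, those taken by the naming rule and those from the study, of which 8 had no call to lose, 47 lost their call in the fit of all groups, 3 with the block, 11, 17 and 13 without Ctrl replicates 1, 2 and 3, and 6 and 1 without *M*-cKO replicates 1 and 2; further list members that the text names were not in this tally.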
